A study of Mus musculus with 16 samples.

Results

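Small leucine-rich proteoglycans are secreted matrix proteins, and 9 of their genes (Dcn, Bgn, Aspn, Fmod, Lum, Prelp, Omd, Ogn and Podn) were followed here across all 16 libraries of a mouse heart RNA sequencing study. The genes were picked by symbol from a table of 57010 genes. All 9 were among the 14066 genes with enough counts to be tested. The RNA came from cardiomyocytes of wild-type C57BL/6 mice that had been injected with adeno-associated virus 9 (AAV9), which carries genes into heart cells. In the PRODH TAC group the virus carried PRODH, proline dehydrogenase, a mitochondrial enzyme of proline breakdown, and the mice underwent transverse aortic constriction (TAC), a narrowing of the aorta that loads the heart with pressure. The vector TAC group received the control virus, AAV9-Vector, and the same constriction. The PRODH sham group received the PRODH virus and a sham operation, and the vector sham group the control virus and a sham operation. Surgery took place 3 weeks after injection and cells were collected 4 weeks after surgery, with 4 libraries per group. All 4 groups had received AAV9, so no group without virus entered the comparisons. The labels do not say which promoter drove PRODH, nor whether each library is a different animal, so the p-values speak for library-to-library spread, part or all of which may be technical.

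The core protein of these proteoglycans is a curved stack of leucine-rich repeats that binds collagen and sets how fibrils assemble and how thick they grow. Decorin and biglycan carry chondroitin or dermatan sulfate chains, fibromodulin and lumican carry keratan sulfate, and asporin carries no such chain. Several of them also bind growth factors, among them TGF-beta. In the heart they are known mainly as products of fibroblasts, and pressure load is known to raise the matrix that these cells lay down. The annotation in the deposited table gave all 9 a leucine-rich repeat domain. In the mouse gene annotation (GENCODE M21), Prelp lies beside Fmod on chromosome 1, Dcn beside Lum on chromosome 10, and Aspn, Omd and Ogn side by side on chromosome 13, while Podn lies on chromosome 4 and Bgn on the X chromosome.

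The promoters of 2 pairs of genes are shown because the members of each pair share a locus: Prelp lies next to Fmod, and Omd lies between Aspn and Ogn. Fmod and Prelp both changed in the comparisons below, whereas Aspn did and Ogn did not pass the test. Each window runs from 250 bases before to 50 bases after the start of transcription on the strand of the gene (RefSeq, GRCm38.p6), and 7 of the 9 members matched the RefSeq table with 8 promoters. Dcn and Lum did not match. Capitals mark every match, on either strand, to the letters of 4 motifs: the SMAD box CAGAC, the TATA box TATAAA, the TEAD motif GGAATG and the AP-1 motif TGANTCA.
Fmod, chr1:134037004-134037303, plus strand: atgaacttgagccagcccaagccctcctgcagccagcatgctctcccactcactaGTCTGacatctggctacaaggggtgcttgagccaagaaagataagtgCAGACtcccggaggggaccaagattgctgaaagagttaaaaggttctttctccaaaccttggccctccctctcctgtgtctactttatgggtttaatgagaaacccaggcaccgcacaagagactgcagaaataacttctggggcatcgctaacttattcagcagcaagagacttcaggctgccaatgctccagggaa
Prelp, chr1:133921352-133921651, minus strand: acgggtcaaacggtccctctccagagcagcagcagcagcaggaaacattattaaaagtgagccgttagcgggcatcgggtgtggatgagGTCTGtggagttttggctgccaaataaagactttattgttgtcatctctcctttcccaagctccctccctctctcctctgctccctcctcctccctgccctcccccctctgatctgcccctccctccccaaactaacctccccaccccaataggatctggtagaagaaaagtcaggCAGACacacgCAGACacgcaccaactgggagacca
Aspn, chr13:49544193-49544492, plus strand: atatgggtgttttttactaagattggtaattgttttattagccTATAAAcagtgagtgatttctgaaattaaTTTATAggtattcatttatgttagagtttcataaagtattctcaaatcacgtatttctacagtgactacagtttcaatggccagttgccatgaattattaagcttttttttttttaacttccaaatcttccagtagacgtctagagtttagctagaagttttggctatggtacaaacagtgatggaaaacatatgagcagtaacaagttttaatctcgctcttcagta
Ogn, chr13:49607765-49608064, plus strand: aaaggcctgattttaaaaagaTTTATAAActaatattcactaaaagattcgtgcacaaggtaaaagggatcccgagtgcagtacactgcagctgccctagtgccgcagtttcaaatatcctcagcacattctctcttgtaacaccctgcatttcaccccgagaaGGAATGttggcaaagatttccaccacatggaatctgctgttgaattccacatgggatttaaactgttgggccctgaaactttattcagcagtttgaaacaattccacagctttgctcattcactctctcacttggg
Fmod held 2 SMAD box matches and Prelp 3, and 49.6% of all 32851 promoters of this length held at least 1. Bgn, Aspn, Omd and Ogn held none, and Podn held 1 match, in 1 of its windows. Aspn and Ogn each held 2 TATA box matches, which overlap each other in Ogn, and 13.6% of all promoters held 1 or more. Counted from the start of transcription, their first bases lay at -207 and -178 in Aspn and at -229 and -227 in Ogn. Ogn was the single member with a TEAD match, found in 14.7% of all promoters. No AP-1 match lay in the 8 windows of the members, and 7.81% of all promoters held one. The Omd promoter, not printed, held no match to any of the 4 motifs. The GC content was 51.0% in Fmod, 55.3% in Prelp, 31.0% in Aspn and 42.3% in Ogn, against a median of 52.7% over all promoters. A match to these letters describes the window and not a bound site.

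Values below are CPM, counts scaled to a common library size, after scaling by the trimmed mean of M-values (TMM), from the estimated counts that the authors deposited. Library totals ran from 15987580 to 22680212. The mouse gene Prodh had 13.6 ± 1.05 CPM in PRODH TAC and 7.28 ± 1.18 CPM in vector TAC (SD, n = 4 each), a log2 fold change of 0.90 ± 0.10 (SE) with an adjusted p of 2.19e-08 by edgeR's quasi-likelihood test. Whether these counts include RNA from the virus was not tested. In sham hearts Prodh had 13.8 ± 0.955 CPM under PRODH and 10.9 ± 0.454 CPM under the vector, and the difference of 0.33 ± 0.10 on the log2 scale lay at the threshold (adjusted p = 0.0517), which it passed in 7 of 23 alternatives. The mean of Prodh in TAC was 0.665 of that in sham under the vector, without overlap, and 0.986 of it under PRODH. Its difference between the TAC groups so includes a lower level with TAC under the vector. The 9 cardiomyocyte markers, Myh6 and Tnnt2 among them, were present in every group, and their summed level was 32630 to 36420 CPM in PRODH TAC, 31420 to 33160 in vector TAC, 40750 to 46070 in PRODH sham, against 41900 to 46050 in vector sham. The 14 fibroblast identity markers, Pdgfra and Tcf21 among them, were present too. Their summed level was 129.4 to 164.2 CPM in PRODH TAC, 347.7 to 380.5 in vector TAC, 98.4 to 102.6 in PRODH sham, against 68.9 to 100.3 in vector sham, with no marker at 0 in any group. Fewer cells of a type and less RNA per cell cannot be told apart in bulk RNA.

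Under the control vector 8 of the 9 proteoglycan genes rose with TAC, and Ogn did not pass the test. The median log2 change over all 9 was 2.53, and medians below are likewise over all tested genes of a list. Over all 14066 genes the median was 0.02, with 30.3% of genes called higher and 26.2% called lower at an adjusted p under 0.05. In the hearts that had received PRODH, 8 of the 9 were lower after TAC than in vector TAC, with a median of -1.38 over all 9. There the background was 18.5% of genes called higher and 24.6% called lower, around a median of -0.04. The fibroblast markers moved in the same directions: 14 of 14 rose with TAC under the vector (median 1.99) and 14 of 14 were lower in PRODH TAC than in vector TAC (median -1.13). The part of fibroblast content in these changes was not tested by these counts, and values relative to the fibroblast markers are given further on. Of the other cell types, 11 of 11 endothelial and 11 of 11 myeloid markers rose with TAC under the vector, and 11 of 11 and 9 of 11 were lower in PRODH TAC than in vector TAC. Of 10 mural markers 7 rose and 2 fell with TAC under the vector, and 2 were higher and 6 lower in PRODH TAC than in vector TAC. Of 5 mesothelial markers 4 rose, and 4 were lower in PRODH TAC. Both comparisons share the vector TAC libraries.

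**Figure D1:**
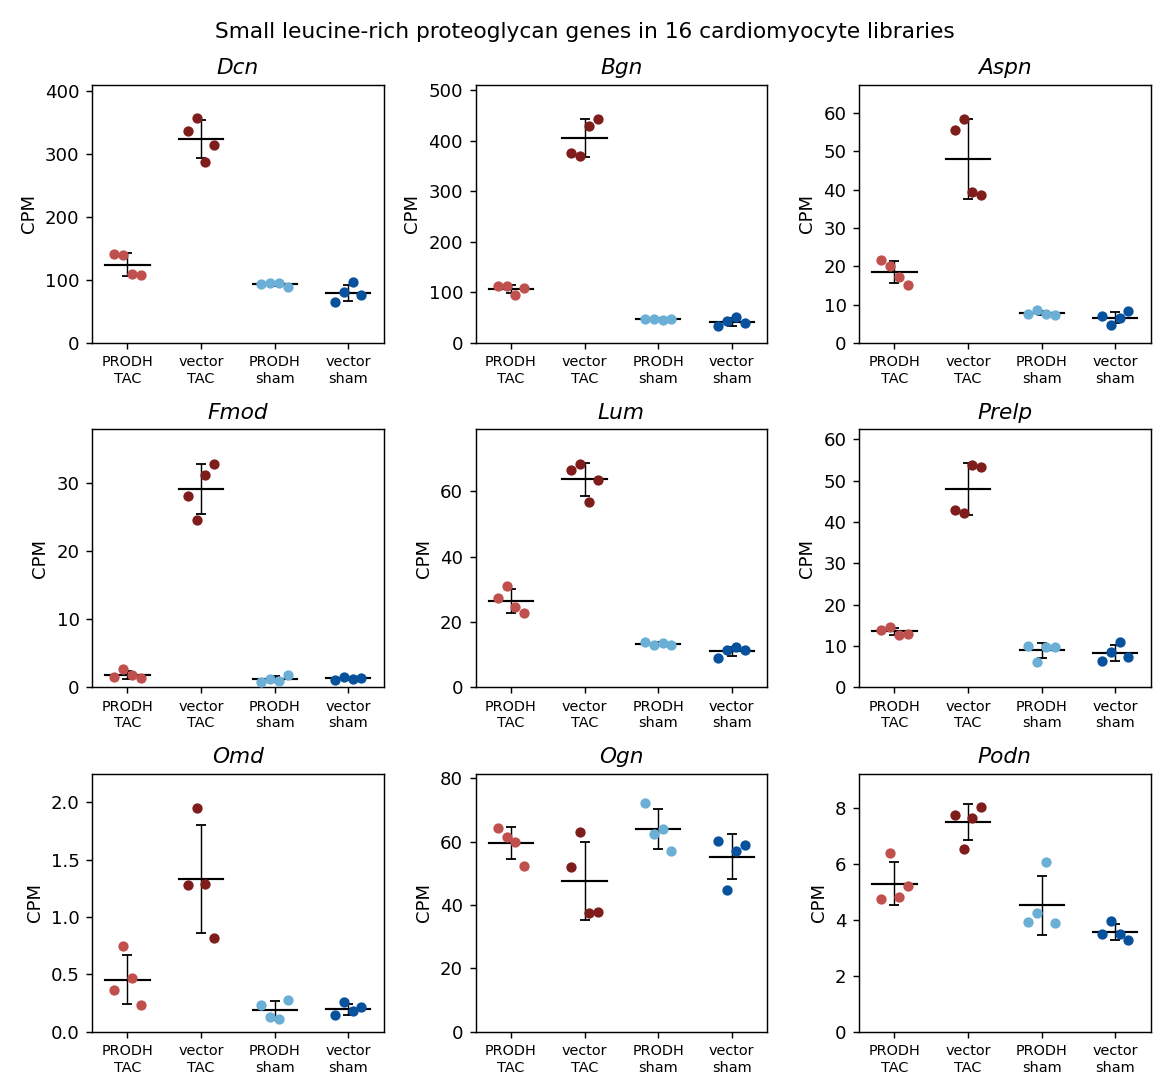
CPM of the 9 proteoglycan genes (vertical axis, from 0, a scale for each gene) in the 4 libraries of each group (horizontal axis). Points are libraries, the long line is the mean and the bar the SD. By edgeR, each gene but Ogn was called higher with TAC under the vector and lower in PRODH TAC than in vector TAC. Of all genes, 30.3% were called higher and 24.6% lower in these comparisons, in that order.

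Decorin and biglycan, the class I members that carry chondroitin or dermatan sulfate, were the most abundant of the 9 in both TAC groups, while in the sham groups Ogn had a higher mean level than Bgn, per kb too. Dcn had 140.2, 139.1, 109.2 and 107.9 CPM in PRODH TAC, 335.7, 357.1, 286.1 and 313.8 CPM in vector TAC, 92.8, 95.6, 94.8 and 88.0 CPM in PRODH sham and 64.7, 80.7, 95.7 and 75.0 CPM in vector sham. The vector TAC libraries lay above all others, and PRODH TAC lay above PRODH sham by a smaller margin. Dcn rose with TAC under the vector by 2.03 ± 0.11 (adjusted p = 6.35e-14) and was lower in PRODH TAC than in vector TAC, at -1.38 ± 0.10 (adjusted p = 1.09e-10, edgeR). Bgn had 112.1, 112.5, 93.9 and 107.7 CPM in PRODH TAC, 375.3, 370.6, 429.9 and 443.5 CPM in vector TAC, 47.6, 47.5, 44.9 and 47.5 CPM in PRODH sham and 33.3, 42.9, 51.6 and 38.9 CPM in vector sham. Its TAC groups did not overlap each other or either sham group. The rise under the vector was 3.28 ± 0.10 on the log2 scale, 9.70-fold (adjusted p = 1.40e-20), and the difference of PRODH TAC from vector TAC was -1.93 ± 0.09 (adjusted p = 8.37e-16). Biglycan, which shares decorin's collagen binding and is also known as a ligand of Toll-like receptors, so had a larger fitted change than Dcn in both comparisons.

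Aspn encodes asporin, a class I protein without glycosaminoglycan chains that is known to bind TGF-beta. It had 21.7, 20.04, 17.3 and 15.2 CPM in PRODH TAC, 55.6, 58.5, 39.4 and 38.7 CPM in vector TAC, 7.65, 8.47, 7.56 and 7.23 CPM in PRODH sham and 6.90, 4.62, 6.58 and 8.25 CPM in vector sham. The TAC groups overlapped neither each other nor the sham groups, and vector TAC libraries 3 and 4 were lower than libraries 1 and 2. Aspn rose with TAC under the vector by 2.87 ± 0.18 (adjusted p = 4.21e-10) and was -1.38 ± 0.15 in PRODH TAC against vector TAC (adjusted p = 1.81e-06, edgeR). In the gene annotation an exon of Aspn overlaps Cenpp on the other strand. The labels do not say whether strand was counted, so reads there cannot be told apart, but Cenpp itself had 1.25 ± 0.186 CPM in PRODH TAC, 1.21 ± 0.395 in vector TAC, 1.27 ± 0.348 with PRODH and sham and 1.35 ± 0.218 with vector and sham (SD, n = 4 each).

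Fmod encodes fibromodulin, which binds collagen and is known to guide its crosslinking by lysyl oxidase. It had 1.49, 2.69, 1.79 and 1.38 CPM in PRODH TAC, 28.1, 24.5, 31.2 and 32.9 CPM in vector TAC, 0.759, 1.18, 0.917 and 1.77 CPM in PRODH sham and 1.07, 1.57, 1.27 and 1.32 CPM in vector sham. Only the vector TAC libraries were high, and the other 3 groups overlapped one another. The rise with TAC under the vector was 4.45 ± 0.17 on the log2 scale, 21.9-fold (adjusted p = 3.55e-18), the largest fitted rise of the 9 genes. PRODH TAC stood at -3.99 ± 0.15 against vector TAC (adjusted p = 6.22e-18), the largest fitted fall of the 9. The counts behind these values were 35 to 65 per library in PRODH TAC and 472 to 660 in vector TAC.

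Lum encodes lumican, a keratan sulfate proteoglycan that spaces collagen fibrils. It had 27.4, 31.0, 24.6 and 22.8 CPM in PRODH TAC, 66.4, 68.3, 56.8 and 63.5 CPM in vector TAC, 13.9, 13.1, 13.5 and 12.9 CPM in PRODH sham and 9.11, 11.4, 12.4 and 11.3 CPM in vector sham. It was the single member for which no pair of the groups compared overlapped, the sham groups included. The sham difference was not called, and 5.28% of all genes tested had PRODH sham above vector sham without overlap. How many genes stand apart in every comparison was not counted. Lum rose with TAC under the vector by 2.52 ± 0.10 (adjusted p = 2.64e-19) and was -1.27 ± 0.09 in PRODH TAC against vector TAC (adjusted p = 6.23e-13, edgeR). Prelp, a class II protein with a basic end that is known to bind heparan sulfate of basement membranes, had 13.9, 14.5, 12.8 and 12.9 CPM in PRODH TAC, 42.8, 42.1, 53.7 and 53.2 CPM in vector TAC, 10.04, 6.23, 9.69 and 9.85 CPM in PRODH sham and 6.26, 8.58, 10.9 and 7.30 CPM in vector sham. Its vector TAC libraries lay far above the rest. Prelp rose by 2.53 ± 0.14 with TAC under the vector (adjusted p = 2.26e-12) and was -1.83 ± 0.13 in PRODH TAC against vector TAC (adjusted p = 2.62e-10). Part of its exons overlaps the antisense gene Gm15851. The labels do not say whether strand was counted, so reads of that part cannot be told apart.

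Omd encodes osteomodulin, a keratan sulfate proteoglycan known from bone, and was close to the detection limit. Its CPM were 0.363, 0.744, 0.471 and 0.236 in PRODH TAC, 1.28, 1.95, 1.29 and 0.813 in vector TAC, 0.234, 0.1246, 0.115 and 0.279 in PRODH sham and 0.142, 0.255, 0.181 and 0.212 in vector sham. These rest on 2 to 5.03 estimated counts per library in vector sham and on 15 to 37.5 in vector TAC. Omd was the single member with fractional counts, in 7 libraries, as counting tools give when reads are divided between sequences. The rise with TAC under the vector, 2.69 ± 0.40 (adjusted p = 1.25e-06), and the difference of PRODH TAC from vector TAC, -1.54 ± 0.32 (adjusted p = 2.95e-04), passed the edgeR test.

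Ogn, which encodes osteoglycin (also called mimecan), the class III member, went its own way. It had 64.3, 61.6, 60.0 and 52.3 CPM in PRODH TAC, 51.9, 62.9, 37.6 and 37.9 CPM in vector TAC, 72.1, 62.4, 64.1 and 56.9 CPM in PRODH sham and 60.1, 44.7, 56.9 and 59.0 CPM in vector sham. All 4 groups overlapped, and vector TAC libraries 3 and 4 were the lowest of the 16. TAC against sham under the vector was -0.21 ± 0.15 (adjusted p = 0.245), and PRODH TAC against vector TAC was 0.32 ± 0.15 (adjusted p = 0.0872). The value for TAC under the vector became 0.06 (adjusted p = 0.720) without vector TAC libraries 3 and 4, and -0.37 with a call of lower (adjusted p = 0.0129) without library 2 of that group. Its difference between the TAC groups was 0.06 (adjusted p = 0.742) without libraries 3 and 4 and 0.48 with a call of higher (adjusted p = 0.00279) without library 2. In all, 5 of 23 alternatives called Ogn higher in PRODH TAC than in vector TAC, also without PRODH TAC library 4 (0.41, adjusted p = 0.0454), without vector sham library 2 (0.37, adjusted p = 0.0410), with no filter on low counts (0.34, adjusted p = 0.00223) and with DESeq2 (0.34, adjusted p = 0.0224).

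Podn encodes podocan, a collagen-binding member of a separate class, and changed least of the 8 that passed the test. It had 4.75, 6.40, 4.83 and 5.20 CPM in PRODH TAC, 7.74, 6.55, 7.65 and 8.02 CPM in vector TAC, 3.91, 4.24, 6.07 and 3.88 CPM in PRODH sham and 3.49, 3.96, 3.50 and 3.28 CPM in vector sham. The TAC groups did not overlap, but the highest PRODH TAC library lay just below the lowest vector TAC library. Podn rose by 1.07 ± 0.14 with TAC under the vector (adjusted p = 1.72e-07) and was -0.50 ± 0.13 in PRODH TAC against vector TAC (adjusted p = 0.00213, edgeR).

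Within vector TAC the members did not vary together. Libraries 3 and 4 were below libraries 1 and 2 for Dcn, Lum, Aspn and Ogn, and above them for Fmod, Bgn and Prelp. The same libraries were the lowest of the group for the mitochondrial transcript mt-Nd4, at 20080 and 22060 CPM, against 25950 and 33660 CPM in libraries 1 and 2; its part in the split was not tested. Without both libraries Fmod rose by 4.30 and Aspn by 3.12 with TAC under the vector, and the counts of members called stayed at 8 higher with TAC and 8 lower with PRODH.

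In the hearts that received PRODH, TAC still raised 7 of the 9 members, and the median log2 change over all 9 was 0.68. The background was 17.2% of genes called higher and 17.8% lower around a median of 0.02. Aspn rose by 1.26 ± 0.18 (adjusted p = 4.30e-05), Bgn by 1.18 ± 0.09 (adjusted p = 2.17e-10) and Lum by 0.99 ± 0.10 (adjusted p = 4.23e-09, edgeR). Prelp rose by 0.59 ± 0.15 (adjusted p = 0.00350) and Dcn by 0.42 ± 0.10 (adjusted p = 0.00267). For these 5 genes every PRODH TAC library lay above every PRODH sham library, as it did for 17.3% of all genes tested. Omd rose by 1.29 ± 0.47 (adjusted p = 0.0322) and Fmod by 0.68 ± 0.25 (adjusted p = 0.0333), but their libraries overlapped. Fmod was no longer called without PRODH TAC library 2 (0.44, adjusted p = 0.175) or 3 (0.69, adjusted p = 0.0518), or without PRODH sham library 1 (0.55, adjusted p = 0.104), 2 (0.73, adjusted p = 0.0529) or 3 (0.61, adjusted p = 0.0923). Omd was no longer called without library 2 or 3 of PRODH TAC or of PRODH sham, with values of 0.96 to 1.26 and adjusted p of 0.0593 to 0.152. Podn, at 0.22 ± 0.14 (adjusted p = 0.230), and Ogn, at -0.10 ± 0.15 (adjusted p = 0.631), did not pass, and Podn passed without PRODH sham library 3 (0.43, adjusted p = 0.0205). In this comparison 10 of 14 fibroblast markers rose and none fell.

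**Figure D2:**
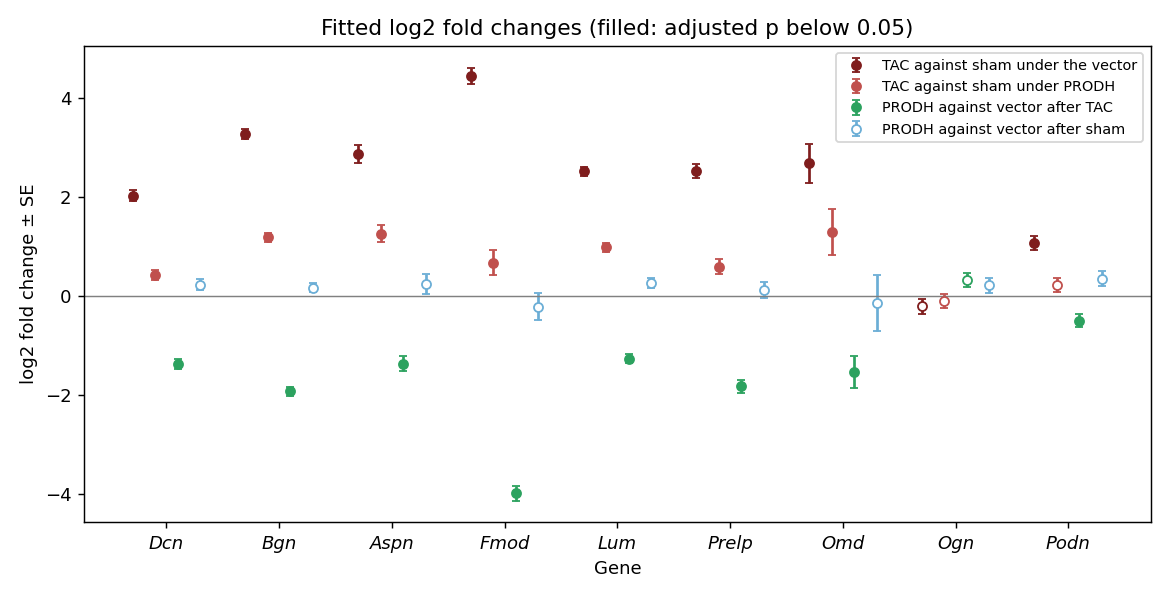
Fitted log2 fold change with its SE (vertical axis) of each proteoglycan gene (horizontal axis) in 4 comparisons. Filled points have an adjusted p under 0.05. Fmod spans the widest range, and the points of Ogn are open in all 4.

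In sham hearts PRODH against vector called none of the 9 members by edgeR or by DESeq2, where 2.81% of all genes were called higher and 2.20% lower. At an unadjusted p under 0.05, 3 members were higher and 0 lower by edgeR. The fitted differences ran from -0.22 in Fmod to 0.35 in Podn, with adjusted p from 0.170 to 0.948. For Lum, 1 of the 9, the PRODH sham libraries lay above all vector sham libraries, as they did for 5.28% of all genes tested, with a log2 difference of 0.26 ± 0.11 (adjusted p = 0.170). The difference between the TAC effects under PRODH and under the vector, tested as an interaction, was called for 7 of 9 members, all negative. Of all genes, 10.9% were called positive and 15.8% negative. It was -3.78 ± 0.34 for Fmod (adjusted p = 3.63e-09), -2.09 ± 0.13 for Bgn (adjusted p = 5.13e-12) and -1.94 ± 0.20 for Prelp (adjusted p = 4.65e-07). Dcn, Aspn and Lum lay between -1.61 and -1.54, and Podn was at -0.85 ± 0.20 (adjusted p = 0.00195). Omd, at -1.40 ± 0.68 (adjusted p = 0.130), and Ogn, at 0.11 ± 0.21 (adjusted p = 0.741), did not pass.

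Levels of different genes were compared per kilobase of the gene length in the deposited table. The summed level of the 9 genes was 163.0 ± 17.4 CPM per kb in PRODH TAC, 442.4 ± 14.1 in vector TAC, 110.3 ± 3.83 in PRODH sham, against 95.1 ± 11.2 in vector sham (SD, n = 4 each). Dcn held the largest mean share of this pool in every group, 43.2% ± 1.69 in PRODH TAC, 41.5% ± 2.83 in vector TAC, 47.8% ± 1.17 in PRODH sham, against 47.1% ± 2.92 in vector sham. In vector TAC the share of Bgn was 37.9% ± 4.18 and did not stand apart from that of Dcn beyond their SD. Bgn held 27.1% ± 1.98 in PRODH TAC, 17.6% ± 0.855 in PRODH sham and 18.03% ± 1.48 in vector sham. The share of Ogn was 14.3% ± 1.06 in PRODH TAC, 4.18% ± 0.976 in vector TAC, 22.5% ± 1.51 in PRODH sham, against 22.8% ± 4.14 in vector sham, and the ranges of the TAC groups overlapped neither each other nor those of the sham groups. In the sham groups Ogn stood next after Dcn in mean share, with libraries above those of Bgn in PRODH sham and overlapping them in vector sham, and in vector TAC it stood below Lum and Aspn, where Lum (5.88% ± 0.311), Aspn (4.69% ± 0.942) and Ogn differed by less than their summed SD from one to the next.

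The low end of the pool was as variable. Fmod held 0.359% ± 0.0966 of it in PRODH TAC, 2.12% ± 0.305 in vector TAC, 0.340% ± 0.144 in PRODH sham, against 0.444% ± 0.0776 in vector sham. The share of Podn moved the other way, although its CPM rose with TAC under the vector. Podn held 1.13% ± 0.145 in PRODH TAC, 0.588% ± 0.0612 in vector TAC, 1.42% ± 0.318 in PRODH sham, against 1.31% ± 0.186 in vector sham. A share falls where the rest of the pool rises more. Fmod was above Podn in vector TAC and below it in the other 3 groups. Omd stayed lowest, with mean shares of 0.0762% to 0.134% over the groups.

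**Figure D3:**
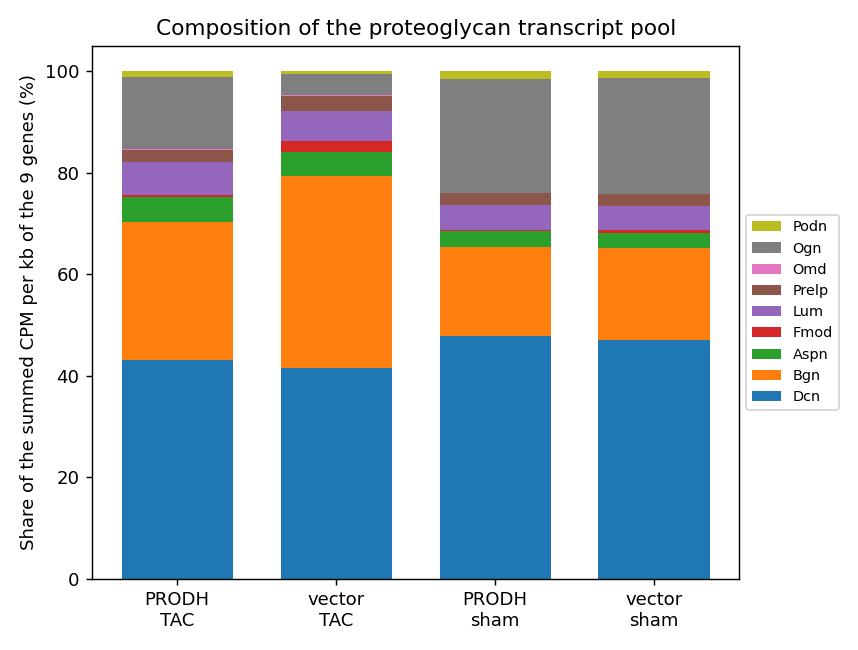
Mean share (%) of each gene in the summed CPM per kb of the 9 proteoglycan genes (vertical axis, from 0) in the 4 groups (horizontal axis), each a mean of 4 libraries. Bgn widens and Ogn narrows in vector TAC. A share can narrow without a lower CPM of its gene.

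Counts were then set against the summed count of the 14 fibroblast markers in the same library, in place of the library total. On this scale most genes fell with TAC under the vector, 94.8% called lower and 0.974% called higher, and in PRODH TAC against vector TAC 92.4% were called higher and 1.07% lower. Under the vector 5 of 9 members were still called higher with TAC: Fmod by 2.30 ± 0.19 (adjusted p = 3.94e-21), Bgn by 1.12 ± 0.13 (adjusted p = 2.33e-13), Aspn by 0.70 ± 0.17 (adjusted p = 1.13e-04), Prelp by 0.38 ± 0.14 (adjusted p = 0.00839) and Lum by 0.37 ± 0.14 (adjusted p = 0.00905, edgeR). Dcn, at -0.12 ± 0.13 (adjusted p = 0.379), and Omd, at 0.57 ± 0.46 (adjusted p = 0.218), did not pass. Ogn, at -2.39 ± 0.16, and Podn, at -1.09 ± 0.17, were lower. Between the TAC groups 3 members were lower under PRODH than under the vector per fibroblast-marker count, Fmod, Bgn and Prelp, with values of -2.65, -0.58 and -0.48. Ogn, at 1.66 ± 0.16, and Podn, at 0.84, were higher, and Dcn, Lum, Aspn and Omd, between -0.22 and 0.06, did not pass.

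In these units Fmod had 12.6 ± 3.05 counts per 1000 marker counts in PRODH TAC, 79.6 ± 6.80 in vector TAC, 11.5 ± 4.25 in PRODH sham, against 16.2 ± 2.79 in vector sham (SD, n = 4 each). Dcn had 859.0 ± 43.0, 888.5 ± 122.3, 927.0 ± 49.96 and 964.8 ± 22.4 for the same groups in that order. Dcn so followed the fibroblast markers closely in every group, while the ratio of Fmod was high in vector TAC alone. Ogn had 415.1 ± 37.7 counts per 1000 in PRODH TAC, 131.5 ± 39.6 in vector TAC, 638.0 ± 68.6 in PRODH sham, against 689.0 ± 159.4 in vector sham. The markers themselves are not fixed per cell: the most abundant of them, Pi16, had 19.96 ± 1.65 CPM in PRODH TAC, 88.4 ± 7.33 in vector TAC, 10.1 ± 0.814 in PRODH sham, against 10.04 ± 2.31 in vector sham. Without Pi16 in the denominator no member changed its call in either comparison.

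**Figure D4:**
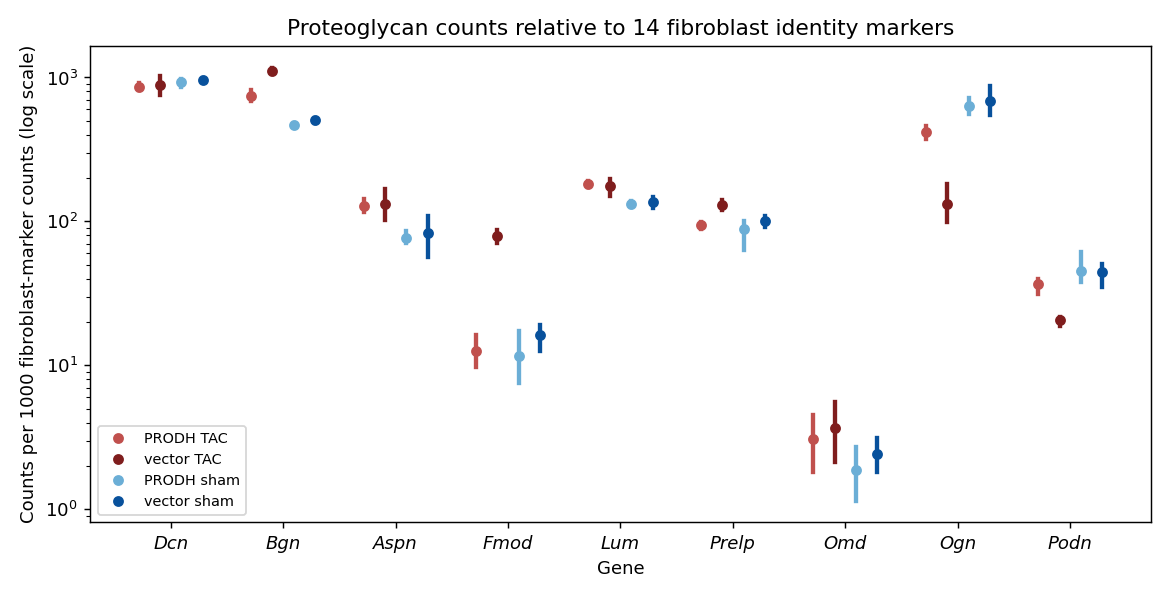
Counts of each proteoglycan gene per 1000 counts of the 14 fibroblast markers (vertical axis, log scale) by gene (horizontal axis) and group. Dots are means and bars the range of 4 libraries. Fmod is high and Ogn and Podn are low in vector TAC. On this scale 94.8% of all genes were called lower with TAC under the vector. In PRODH TAC against vector TAC 92.4% were called higher.

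Neighbours on the chromosome did not always move alike. On chromosome 1 Prelp and Fmod both rose with TAC under the vector, while Optc, the eye proteoglycan opticin next to Prelp, had at most 3 counts in a library. On chromosome 10 Dcn and Lum rose, while Kera and Epyc beyond them had at most 1 and 4 counts. On chromosome 13 Ecm2, Aspn and Omd rose and Ogn, the last of the run, did not pass. Ecm2, which encodes a matrix protein with leucine-rich repeats, had 13.9 ± 1.30 CPM in PRODH TAC, 28.1 ± 1.16 in vector TAC, 8.75 ± 0.209 in PRODH sham, against 7.15 ± 1.21 in vector sham. It rose by 1.98 ± 0.10 (adjusted p = 1.55e-16) under the vector and was -1.02 ± 0.09 in PRODH TAC against vector TAC (adjusted p = 1.06e-10, edgeR). Cenpp, the centromere protein gene that spans this run on the opposite strand, was at -0.16 ± 0.25 (adjusted p = 0.602) and 0.05 ± 0.24 (adjusted p = 0.883).

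Of 8 other genes of the family (Epyc, Kera, Optc, Nyx, Chad, Chadl, Tsku and Podnl1), Tsku alone had enough counts to be tested. Tsku encodes tsukushi, known as a secreted modulator of growth factor signals. It had 0.907 ± 0.183 CPM in PRODH TAC, 2.11 ± 0.318 in vector TAC, 0.579 ± 0.199 in PRODH sham, against 0.609 ± 0.152 in vector sham. It rose by 1.78 ± 0.27 with TAC under the vector (adjusted p = 1.45e-06) and was -1.21 ± 0.24 in PRODH TAC against vector TAC (adjusted p = 1.37e-04, edgeR). Kera had 1 count in 1 of the 16 libraries, and a count of 0 allows up to 3 counts, 0.118 to 0.213 CPM by library.

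The collagens that the proteoglycans bind moved the same way. Of 15 fibrillar collagens and fibril partners 15 rose with TAC under the vector (median 3.17) and 15 were lower in PRODH TAC than in vector TAC (median -2.05). Col1a1, Col1a2 and Col3a1, chains of the main fibrils, rose by 3.77, 3.83 and 3.21 and were -2.44, -2.16 and -1.67 in PRODH TAC against vector TAC. The minor fibrillar chains Col5a1, Col5a2 and Col5a3 rose by 3.14, 3.61 and 1.73, and Col12a1 and Col14a1, which coat fibrils, by 5.56 and 3.05. Col11a1, at 5.22 and -4.53, had the widest error of the list (SE 0.59 and 0.48). Ccn2, a matricellular growth factor partner, rose by 3.17 and was -2.62. Dpt belongs both to this list and to the fibroblast markers. With TAC under PRODH 13 of the 15 rose and none fell (median 1.40). In sham hearts PRODH against vector called 2 of the 15 lower and none higher, where 2.20% of all genes were called lower. Lox, lysyl oxidase, rose by 4.35 ± 0.16 and was -3.55 ± 0.14 in PRODH TAC against vector TAC.

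Enzymes that build the chains changed less. Of the 22 chondroitin and dermatan sulfate enzymes 20 were tested, and 15 rose and 1 fell with TAC under the vector (median 1.03), while 13 were lower and none higher in PRODH TAC than in vector TAC (median -0.54). Dse, the epimerase that turns chondroitin into dermatan sulfate, rose by 1.86 ± 0.19 and was -0.92 ± 0.16 between the TAC groups. Chst12, a chondroitin sulfotransferase, rose by 1.87 ± 0.21 and was -1.04 ± 0.18. Chpf and Chpf2, chain-polymerizing factors, rose by 1.07 and 1.54, and Xylt1, which starts the chain with xylose, by 1.35 ± 0.22. The one that fell was B3gat3, an enzyme of the linker to the core protein, named after its value was seen, at -0.40 ± 0.09 (adjusted p = 6.41e-04, edgeR), and it was -0.05 (adjusted p = 0.683) when libraries were scaled by their totals. Of 7 keratan sulfate enzymes 5 were tested: 5 rose with TAC under the vector (median 1.24), and 2, B4galt4 and B4galt1, at -0.74 and -0.23, were lower in PRODH TAC than in vector TAC.

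Of 11 enzymes that process proteoglycans or their collagen partners 8 were tested, and 8 rose with TAC under the vector (median 1.50) and 8 were lower in PRODH TAC than in vector TAC (median -1.12). Mmp2 and Mmp14, matrix metalloproteinases, rose by 3.59 and 2.49 and were -1.93 and -1.71. Pcolce and Pcolce2, enhancers of procollagen cleavage, rose by 1.91 and 1.55 and were -1.33 and -1.04. Of 16 ligands and receptors linked to decorin or biglycan, not all by direct binding, 16 rose with TAC under the vector (median 1.29). In PRODH TAC 14 were lower than in vector TAC (median -0.81). Tgfb2, Tgfb3 and the receptor Tgfbr2 rose by 1.98, 1.67 and 1.46 and were -1.51, -1.25 and -0.70. Egfr, a receptor for decorin, rose by 2.24 and was -1.16, and Cd14, a co-receptor of Toll-like receptors, rose by 1.29 and was -1.52. In sham hearts PRODH against vector called 1 of the 16 higher and 1 lower, where 2.81% and 2.20% of all genes were. The mean of Cd14 in PRODH sham was 0.689 of that in vector sham.

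Each member's closest genes were sought among 8005 others with at least 5 CPM, by the root mean square difference of centred log2(CPM + 0.5) over the 16 libraries. Fmod was closest to Lox (0.43), Serpina3n (0.47) and Ccn2 (0.48). Dcn was closest to Sulf1 (0.13), Igfbp4 and Igf1, and Bgn to Serpinf1 (0.11), Mmp2 and Fn1. Lum was closest to Ccdc80 (0.14), Mxra8 and Emp1, Aspn to Emp1 (0.27), Itih5 and Ccdc80, and Prelp to Islr (0.16), Fbln5 and Lrp1. Podn was closest to Gcnt2 (0.14), Hip1 and Fzd4, and Ogn to Gpbp1 (0.08), Tmem30a and Dnajb1. The distance is not scaled by the spread of a gene. Genes that change little, such as Ogn, so lie close to others that change little. The pseudocount of 0.5 CPM shrinks the changes of low genes, and with 0.05 CPM in its place, chosen after seeing the data, all 3 of the closest genes were the same for Lum, Ogn, Prelp and Podn, 2 for Dcn, Bgn and Aspn, and 1 for Fmod. Omd, at 0.188 to 1.33 CPM as group means, was closest to Cd9 (0.18), Pxdc1 and Arpc1b with 0.5 CPM and to Igfbp7 (0.41), Emp1 and Meox1 with 0.05 CPM, so its nearest genes rest on the pseudocount. Among the members themselves Lum and Aspn were closest (0.25), and the nearest member was 0.68 away from Fmod and 0.56 from Ogn, farther than for the other 7 with either pseudocount. These distances describe likeness over libraries that share 4 groups and carry no test.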

How the data were processed

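RNA of 16 cardiomyocyte libraries was measured. The authors deposited estimated counts (not whole numbers in every row) per gene and library, beside group means that were not used and a gene length used for levels per kb. Per the labels' protocols, RNA was extracted with TRIzol, treated with DNase I and made into libraries with a SMARTER kit. The aligner, counter and build were not given in the sources used here; printed coordinates are those of RefSeq promoter windows, and GENCODE M21 gave the chromosomes, gene order and exon overlaps. Groups came from the sample labels. Chi-square per gene between libraries of a group was 2.87 or more, so no library was a copy.

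Counts were rounded and tested with edgeR 4.0.16 (R 4.3.3): filterByExpr (minimum count 10, total 15), TMM scaling, a robust quasi-likelihood fit over 4 groups with no block, prior count 0.125, and Benjamini-Hochberg adjustment over 14066 genes, threshold 0.05. This test was run on simulated data first. Likeness used log2(CPM + 0.5). Alternatives were edgeR with size factors of the DESeq2 kind, the Wald test of DESeq2 1.42.0, library totals, no filter, the compared groups alone, a replicate block and each library left out. A run without vector TAC libraries 3 and 4, chosen after seeing the data, is counted among the 23 alternatives. The members and lists were chosen with earlier results of these data known. Named genes were all members, other family members, cluster neighbours, collagens, Lox, up to 4 genes per other list with the smallest p in each main comparison, and Prodh. At 0 counts a level up to 3 counts is allowed, and such limits cover counting error only.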

Additional observations from a re-analysis of the deposited data

Results flagged for a closer look

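Among 40 group checks of 4 libraries each (9 members and Prodh), 3 held a library that stood apart from the rest, and chance flags about 1 in 20 groups. All 3 were in PRODH sham. Bgn was lowest in library 3, at 44.9 CPM against 47.5 to 47.6 CPM in the others. Prelp was lowest in library 2, at 6.23 CPM against 9.69 to 10.04 CPM. Podn was highest in library 3, at 6.07 CPM against 3.88 to 4.24 CPM.

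The effect of TAC differed between the viruses by the interaction test in edgeR for 7 members and for Prodh. As the effect under PRODH minus the effect under the vector, on the log2 scale, it was -3.78 for Fmod, -2.09 for Bgn, -1.94 for Prelp, -1.61 for Dcn, -1.61 for Aspn, -1.54 for Lum, -0.85 for Podn and 0.56 for Prodh. For these members the fitted effect of TAC was positive under both viruses, so the fitted difference is one of size. Under PRODH, Podn did not pass the test, and Fmod lost its call in 5 of 23 alternatives.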

How the results depend on the processing

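Fmod, Dcn, Bgn, Lum, Aspn, Prelp and Podn kept their direction and call under every alternative run for TAC under the vector, for PRODH against vector after TAC and for the interaction. So did Omd, which was called in the first 2 and in no run of the interaction. Scaling by library totals moved the median log2 change of all genes with TAC to 0.37 under the vector and 0.40 under PRODH. It called 7474 genes higher and 1198 lower under the vector and 7875 higher and 311 lower under PRODH, against 4263 and 3686, and 2425 and 2500, with TMM. With those totals 1 of 9 cardiomyocyte markers was higher and 4 lower with TAC under the vector, against 0 and 8, and Podn passed for TAC under PRODH (0.60, adjusted p = 0.00109). The cause was not tested. Ogn turned to 0.15 (vector) and 0.27 (PRODH) for TAC with library totals. After leaving out vector TAC libraries 3 and 4, chosen after seeing the data, it was 0.056 for TAC under the vector and -0.16 for the interaction. Ogn was called higher in PRODH TAC against vector TAC, making 1 member called higher against 0, with no filter (0.34, adjusted p = 0.00223) and with DESeq2 (0.34, adjusted p = 0.0224). Omd for TAC under PRODH was lost with no filter (adjusted p = 0.0501) and DESeq2 (adjusted p = 0.0562). Leaving out single libraries gave 0 to 1 member lower with TAC under the vector and 0 to 1 higher in PRODH TAC against vector TAC. Omd in sham ran from -0.35 to 0.033 without single libraries, turning positive without PRODH sham library 3 or vector sham library 2 (0.0077). Cenpp, never called, turned to 0.19 (totals) and 0.11 (without libraries 3 and 4) for TAC under the vector, and to -0.22 (without libraries 3 and 4) and, leaving out single libraries, from -0.052 to 0.28 between the TAC groups. Per fibroblast-marker count, values that were never called changed sign near 0: Dcn 0.091 for TAC under the vector and Lum -0.12 between the TAC groups without Pi16, and between the TAC groups, leaving out single libraries, ranges were -0.15 to 0.089 for Aspn, -0.12 to 0.028 for Dcn, -0.47 to 0.028 for Omd and -0.0051 to 0.12 for Lum. Prodh in sham passed in 7 of 23 alternatives: with the compared groups alone (0.33, adjusted p = 0.0438), without vector TAC libraries 3 and 4 (adjusted p = 0.0385), without each single vector TAC library (adjusted p = 0.0338 to 0.0482) and without PRODH sham library 1 (adjusted p = 0.0457). Same-numbered libraries did not deviate together (correlations -0.152 to 0.201), and the replicate block changed no call of a member, with 8 of 9 higher for TAC under the vector and 8 lower for PRODH against vector after TAC. At 2 to 5 counts per sham library, depth limits Omd.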
